A study of Homo sapiens with 40 samples.

Results

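Genes that mark T cells, natural killer (NK) cells and myeloid cells were followed through a knockdown of caspase-10 in B-lineage tumour lines. The genes were chosen by symbol, from a list of 44 lineage genes. The probe-to-gene table of the array named 35 of them, with 102 of the 15246 probes: 18 of 20 T cell genes, 9 of 10 NK cell genes and 8 of 14 myeloid genes. ICOS, TCF7, KLRB1, CD33, LYZ, S100A8, S100A9, CEBPA and ELANE were not analysed here. A gene was read by 1 probe for 9 of the 35, by 2 probes for 7 and by 3 or more for 19, and its value is the mean over its probes.

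The study knocked down CASP10 to find the transcripts that respond to its loss in multiple myeloma, with lymphoma lines as controls. The myeloma lines, which are established cultures of malignant human plasma cells, were SKMM1, H929 and KMS12. The lymphoma lines, OCI-Ly7 and OCI-Ly19, are of B-cell origin. Every line had been transduced with a retroviral vector for a doxycycline-inducible short hairpin RNA (shRNA) and selected with puromycin, so the uninduced cells carried the vector too. Of the 40 2-colour lymphochip arrays, 36 compared RNA of doxycycline-treated cells (20 ng/ml, Cy5) with RNA of untreated, uninduced cells of that line, matched by day (Cy3). The hairpin shCasp10-2 was used in SKMM1 (12 arrays, days 1 to 5), H929 (8 arrays, days 1 to 5), KMS12 (4 arrays, days 1 to 4), OCI-Ly7 and OCI-Ly19 (2 arrays each, days 3 and 4). The second hairpin, shCasp10-3, was used in H929 and KMS12 (4 arrays each, days 2 to 5). On the other 4 arrays, of SKMM1 with shCasp10-2 (days 1 to 4), the Cy3 channel held doxycycline-treated cells with a control shRNA. Values are log ratios, read as log2; above 0 was taken as higher in induced cells, the likely but unstated direction.

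T cells recognise antigen through a receptor that signals by way of the CD3 chains and the kinases LCK and ZAP70. Cytotoxic T cells and NK cells kill with granules that hold perforin and granzymes. Monocytes, macrophages and granulocytes carry receptors for bacterial products, growth factors and antibody, and enzymes that make oxidants. Plasma cells and B cells have shut off most of these genes, though some, such as NCAM1 and CD28, are known from malignant plasma cells. A ratio does not give a level: without the channel intensities these data do not show which of the genes the lines transcribed. The ratios are of bulk RNA, so fewer cells with a transcript and less of it per cell cannot be told apart.

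The arrays differed in spread. On 12 of the 40, called wide here, over 10% of all probes lay beyond 3 in either direction, and on 10 of these 12 the wide tail lay below 0. The wide arrays with a negative tail were day 1 of H929 and of KMS12 with shCasp10-2, day 2 of H929 repeat 1, of H929 with shCasp10-3 and of KMS12 with shCasp10-2, day 3 of H929 with shCasp10-3, days 2, 3 and 4 of SKMM1 repeat 2, and an SKMM1 array labelled day 5 of repeat 1. OCI-Ly7 on day 3 and SKMM1 repeat 3 on day 4 were wide with a positive tail. Of the 780 pairs of arrays, 87 had a Pearson's r below -0.3 across the probes (lowest r -0.52). The direction of single courses is therefore not settled by the data, and the results that change when a repeat is turned are given so. The target, CASP10, had 6 probes and lay below 0 on 34 of the 40 arrays and on 24 of the 28 that were not wide. Its course means were -0.36, -1.62 and 0.01 in the 3 SKMM1 repeats, -1.42, -0.08 and -0.63 in H929, and -0.60 and -0.32 in KMS12. In the lymphoma lines it was at -0.06 in OCI-Ly19 and 1.77 in OCI-Ly7, so the OCI-Ly7 ratios go against the labelled knockdown. Against the control shRNA it was at -0.61 ± 0.14 (SD, 4 arrays).

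On the wide arrays with a negative tail most lineage genes lay below 0, while most ribosomal protein genes lay above it. The median of the 35 genes lay between -3.98 and -0.86 on these 10 arrays, further below 0 than the median of all 9681 features on each of the 10. The medians of the 27 ribosomal protein genes ran from -0.26 to 0.50 on the same arrays, and those of 11 plasma cell genes from -0.80 to 0.08. Mature B cell genes, 18 in number, had medians from -3.65 to -1.002. Of the single values of lineage genes on these arrays, 87.1% lay below 0, against 72.2% of all features, 96.7% of the B cell genes, 63.6% of the plasma cell genes and 29.3% of the ribosomal protein genes. The array labelled day 1 of H929 with shCasp10-2 was the lowest: 33 of 35 genes were below 0 and 22 were beyond 3, with CD4 lowest at -6.21. The part of array quality, of signal near background or of the knockdown in this pattern was not tested.

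**Figure D1:**
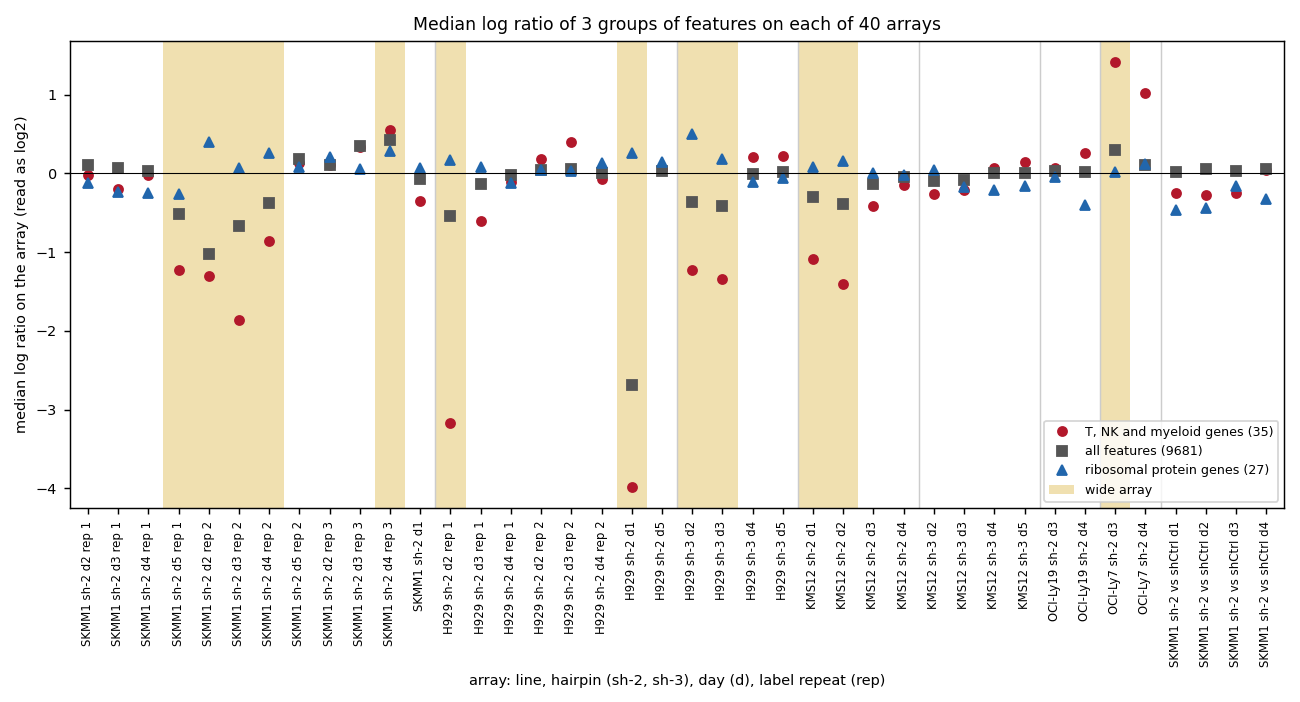
Median log ratio of the 35 lineage genes (circles), all 9681 features (squares) and 27 ribosomal protein genes (triangles) on each array, grouped by line and hairpin; shaded columns are wide arrays. The lineage medians fall to -3.98 on the H929 day 1 array while the ribosomal protein medians stay between -0.47 and 0.50 on all 40 arrays.

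On the wide arrays with a positive tail the lineage genes lay above 0. Their median was 1.42 on OCI-Ly7 day 3, where all features had 0.30, and 0.55 on SKMM1 repeat 3 day 4, where all features had 0.42. NK cell genes led on OCI-Ly7 day 3 with a median of 2.60, beside 0.91 for T cell genes and 1.13 for myeloid genes. On the 28 arrays that were not wide the median of the lineage genes ran from -0.60 to 1.03, below 0 on 14 and above 0 on 14.

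Even on the arrays that were not wide these genes scattered more than most. Of their 980 values there, 14.3% lay beyond 1, against 10.1% of the values of all features, 9.52% for B cell genes, 3.57% for ribosomal protein genes and 3.25% for plasma cell genes. The median SD of a lineage gene over the 28 arrays was 0.66, beside 0.49 for all features, 0.55 for B cell genes, 0.32 for plasma cell genes and 0.30 for ribosomal protein genes. NK cell genes had the higher median SD, 0.89, with 0.61 for T cell genes and 0.63 for myeloid genes. Over all 40 arrays 396 of 1400 values (28.3%) were beyond 1 and 127 (9.07%) beyond 3, against 19.0% and 7.10% for all features. Set against the same array, the SD among the 35 gene means exceeded that of all features on 15 of 40 arrays, while the SD among their 102 single probes exceeded that of all probes on 32 of 40. Gene means average several probes for most of the 35 genes. The median over arrays of the ratio of these SDs was 0.94 for gene means and 1.12 for single probes.

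**Figure D2:**
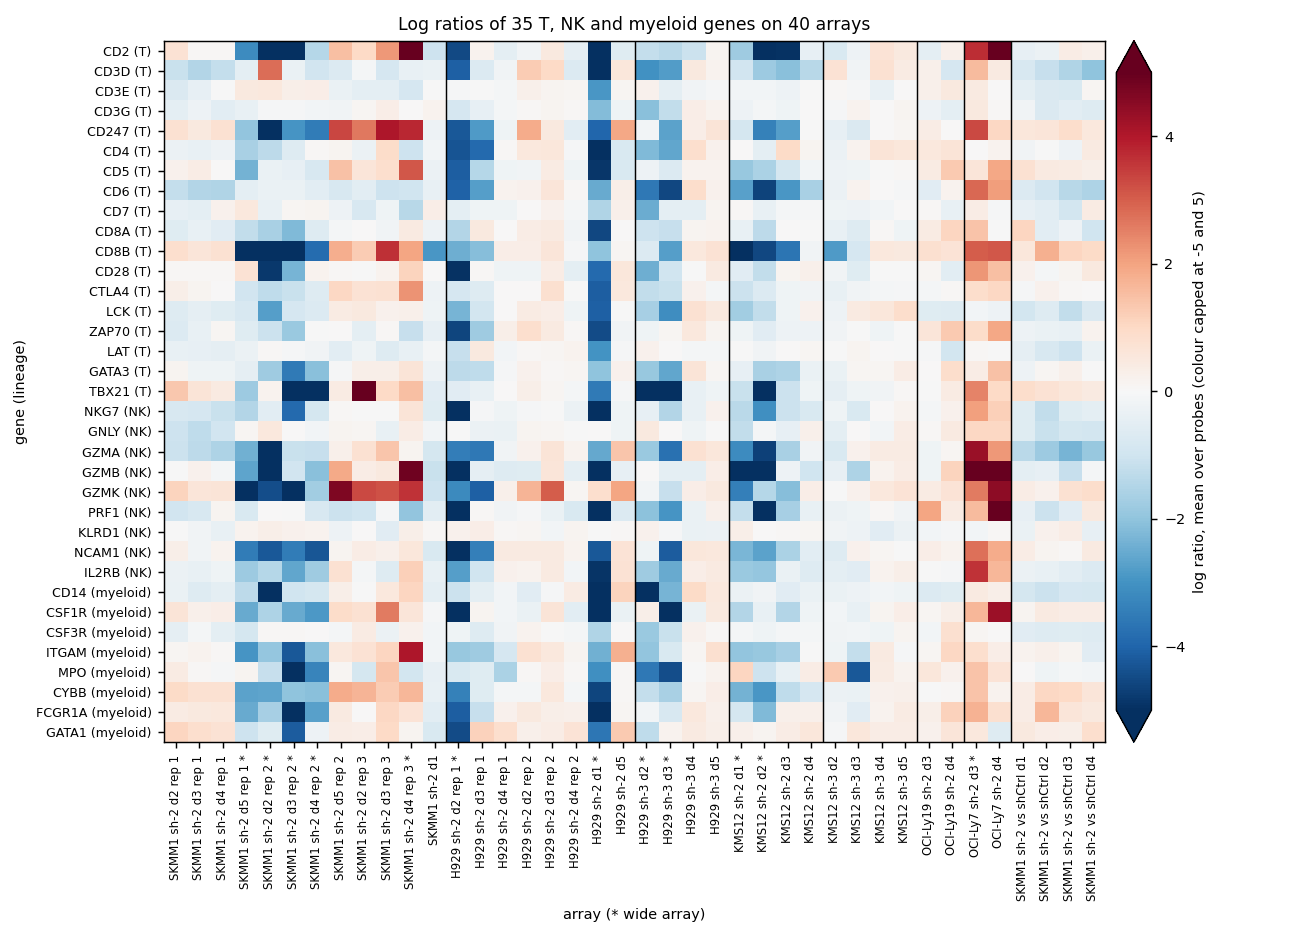
Log ratio of each of the 35 genes (rows, with lineage) on each of the 40 arrays (columns, grouped by line and hairpin; a star marks wide arrays), with red above 0, blue below 0 and colour capped at -5 and 5. Blue fills the starred columns of H929, KMS12 and SKMM1 other than SKMM1 repeat 3 day 4, and OCI-Ly7 is mostly red.

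The genes did not vary alike. CD2, an adhesion receptor of T and NK cells read by 1 probe, had the widest spread, with an SD of 2.81 over 40 arrays; its lowest value was -8.70 (SKMM1 repeat 2, day 3), its median -0.34 and its highest 5.28 (OCI-Ly7, day 4). CD8B, a chain of the cytotoxic T cell coreceptor, ran from -6.94 to 3.64 (SD 2.64, median 0.41). GZMB, the granzyme that activates caspases in target cells, ran from -7.03 to 5.60 (SD 2.59, median -0.41). At the other end stood KLRD1, the CD94 chain of NK cell receptors, whose 40 values lay between -0.56 and 0.35 with a median of 0.02 (SD 0.25). It was among the steadiest of all features, 0.888% of which had a lower SD. CSF3R, the receptor of the granulocyte growth factor, had an SD of 0.49 (lowest -1.85, median -0.12, highest 0.80). GNLY, the granule protein granulysin, had 0.55 (lowest -1.28, median -0.03, highest 1.03). Spread moved with the number of probes averaged: the median SD was 1.90 for the 9 genes with 1 probe, 1.49 for the 7 with 2 and 1.40 for the 19 with 3 or more. Named genes as a whole had 1.34, 1.11 and 0.97 in the same classes.

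**Figure D3:**
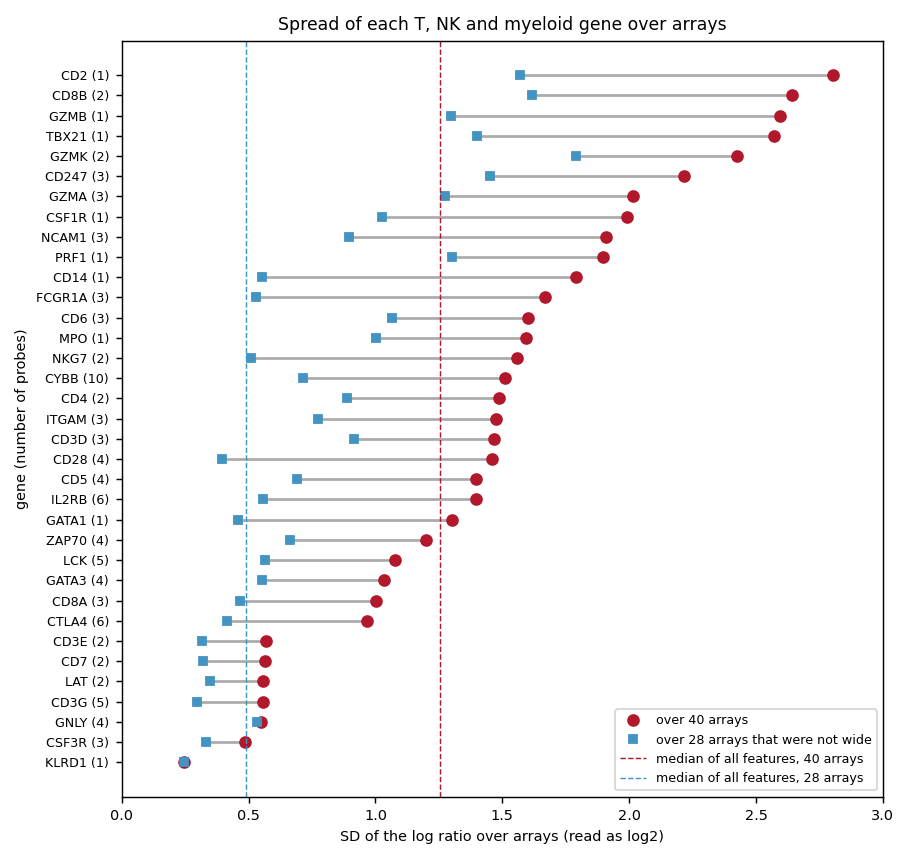
SD of the log ratio of each gene over all 40 arrays (circles) and over the 28 arrays that were not wide (squares), with the number of probes beside the gene; dashed lines give the medians of all features. CD2 (2.81) and CD8B (2.64) head the plot and KLRD1 (0.25) ends it.

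Among the parts of the T cell receptor, CD3E and CD3G stayed close to 0 and CD3D and CD247 did not. On the arrays that were not wide the SD was 0.32 for CD3E and 0.30 for CD3G, and 0.91 for CD3D and 1.45 for CD247, the zeta chain. CD247 reached 4.06 on SKMM1 repeat 3 day 3 and -5.20 on SKMM1 repeat 2 day 2. LAT, the adaptor that ZAP70 phosphorylates, had an SD of 0.35 on these arrays, LCK 0.57 and ZAP70 0.66. The helper coreceptor CD4 (0.89) and the cytotoxic CD8B (1.62) were wider than CD8A (0.47). The costimulatory receptor CD28 had 0.40 and its inhibitory relative CTLA4 0.42. Of the other surface proteins, CD5 had 0.69, CD6 1.07 and CD7 0.32. The lineage regulators GATA3 and TBX21, which direct helper T cell fates, had 0.55 and 1.40; the single probe of TBX21 gave the highest value of any of these genes on any array, 6.98 on SKMM1 repeat 3 day 2.

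Among NK cell and granule genes GZMK scattered most, followed by perforin and the other granzymes. On the arrays that were not wide, the SD was 1.79 for GZMK, 1.28 for GZMA and 1.30 for GZMB, all serine proteases of the granule, and 1.30 for PRF1, the pore-forming perforin. NKG7, a membrane protein of the granule, had 0.51, the cytokine receptor chain IL2RB 0.56 and the adhesion molecule NCAM1 0.89. Myeloid genes ranged from 0.33 for CSF3R to 1.02 for CSF1R, the macrophage growth factor receptor. Between them lay GATA1, a regulator of erythroid, megakaryocyte, mast cell and eosinophil fates (0.46), the Fc receptor FCGR1A (0.53), the lipopolysaccharide receptor CD14 (0.55), CYBB, the catalytic subunit of the phagocyte NADPH oxidase (0.72), the integrin chain ITGAM (0.77) and the granule peroxidase MPO (1.00).

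Probes of the same gene followed each other about as closely as those of other genes. For the 26 genes with more than 1 probe, the median over genes of the median Pearson r between probes was 0.44 over 40 arrays, beside 0.405 for 2674 genes with more than 1 probe and 0.69 for 17 ribosomal protein genes. On the 28 arrays that were not wide these medians were 0.35, 0.25 and 0.63. Arrays of a course share cells and all share the array's own spread, so the 40 points are not independent. The 2 NKG7 probes had r 0.72 over 40 arrays and 0.65 on the arrays that were not wide, and GZMK had 0.65 in both. The 3 CD247 probes had a median r of 0.70, the 3 GZMA probes 0.63, the 3 CD6 probes 0.59 and the 4 probes each of CD5 and ZAP70 0.55 and 0.54. The 10 CYBB probes had a median r of 0.57, with single pairs from 0.14 to 0.90. Agreement was lower for IL2RB (6 probes, 0.45), FCGR1A (3, 0.46), ITGAM (3, 0.43), CD3D (3, 0.40), GNLY (4, 0.36), NCAM1 (3, 0.32), LCK (5, 0.32), CD8A (3, 0.29) and GATA3 (4, 0.27), while the 4 CD28 probes had 0.50. Probes of 5 genes barely followed each other: CTLA4 (6 probes, 0.16), CD3E (2, 0.13), CD3G (5, 0.08), CSF3R (3, 0.01) and CD7 (2, 0.0045). The 2 LAT probes had an r of -0.0044 over 40 arrays and 0.63 on the arrays that were not wide.

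Across the 3 myeloma lines, no lineage gene passed the test, and the target, CASP10, did not pass it either. The test therefore does not show that the lineage genes were unchanged. The unit of replication was the time course (1 line, 1 hairpin, 1 repeat), averaged over days 2 to 4, with 8 courses and the 3 lines weighted equally. limma called 0 of the 35 genes at an adjusted p of 0.05, and 0% of all 9681 features, 467 of which had an unadjusted p under 0.05. Of the 35 genes 3 had an unadjusted p under 0.05. Below 0 lay 34 of the 35, with a median of -0.54, against 81.3% of all features with a median of -0.27; with median-centred arrays these became 33 of 35, -0.44 and -0.18. The course medians of the 35 genes ran from -1.76 (SKMM1 repeat 2) to 0.39 (SKMM1 repeat 3), with -1.42, 0.15 and -0.97 in H929 (repeats 1 and 2, shCasp10-3), -0.67 and -0.16 in KMS12 (shCasp10-2, shCasp10-3) and -0.18 in SKMM1 repeat 1.

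The 4 lowest genes of this response were CD6, CD2, CD8B and GZMA. CD6, a T cell coreceptor, had course means of -1.38, -0.41 and -0.85 in SKMM1, -2.20, 0.30 and -2.42 in H929, and -3.04 and -0.03 in KMS12. Its fitted response was -1.29 (SE 0.45, limma adjusted p = 0.682). H929 repeat 2 and KMS12 with shCasp10-3 stood near 0 or above while the other courses were low. CD2 had -1.22 (SE 0.96), CD8B -1.18 (SE 0.91) and GZMA -1.18 (SE 0.53), each with a limma adjusted p of 0.682. Their courses spread over both sides of 0: CD2 from -5.61 (SKMM1 repeat 2) to 2.77 (SKMM1 repeat 3), CD8B from -5.82 to 2.30 in the same courses, and GZMA from -3.08 to 0.76. CD2 and CD8B stood at 0.03 and 0.11 with SKMM1 repeat 2 turned in sign. The 4 highest genes were GATA1 at 0.01 (SE 0.32), KLRD1 at -0.03 (SE 0.11), LAT at -0.11 (SE 0.10) and CD3E at -0.12 (SE 0.14). For these the responses were within about 1 SE of 0, and KLRD1 turned above 0 with median-centred arrays (0.07).

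**Figure D4:**
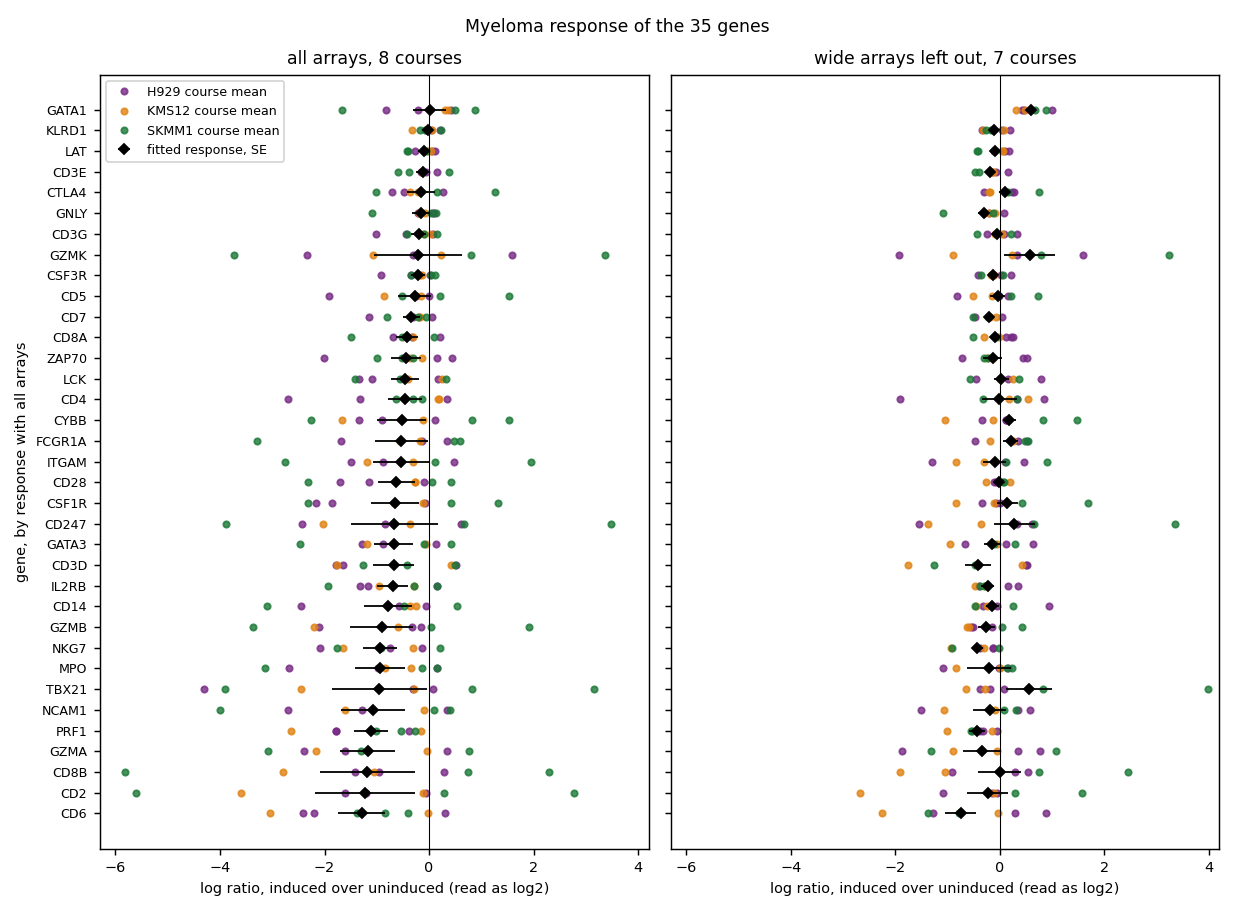
Myeloma response of the 35 genes with all arrays (left) and without the wide arrays (right). Coloured points are course means by line, diamonds the limma estimates with SE, as log ratios read as log2. The left panel spreads from -5.82 to 3.48 and nearly all diamonds lie below 0; on the right the diamonds run from -0.75 (CD6) to 0.60 (GATA1).

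Without the wide arrays most of the downward shift was gone. Wide arrays were picked by their tails, most of them below 0, so a smaller shift without them followed in part from that choice. The share of lineage genes called was near that of all features. On course means it was 0 of 35, and in a fit added after seeing the data 2 of 35, NKG7 lower and GATA1 higher. This fit used the single arrays of days 2 to 4 that were not wide, with the course as a random block, and 7 courses had such arrays (SKMM1 repeat 2 had none). Of the 35 genes 26 lay below 0 with a median of -0.12, beside 47.7% of all features with a median of 0.01. With limma, 2 of the 35 passed, 1 in each direction, against 4.57% of all features (1.44% higher and 3.13% lower, 442 features in all). On course means without the wide arrays it called 0 of the 35 genes and 0 features (1444 at an unadjusted p under 0.05). Without the block, the single arrays gave 5 calls among the 35, CD3E, NKG7, GNLY and PRF1 lower and GATA1 higher, against 13.6% of all features (4.93% higher and 8.71% lower).

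NKG7 had course means without the wide arrays of -0.92 and -0.02 in SKMM1 (repeats 1 and 3), -0.14, -0.13 and -0.39 in H929 (repeats 1 and 2, shCasp10-3), and -0.93 and -0.31 in KMS12 (shCasp10-2, shCasp10-3). All 7 were below 0, with SKMM1 repeat 1 and KMS12 with shCasp10-2 lowest. It fell by 0.43 (SE 0.11, limma adjusted p = 0.0374). The call was lost without SKMM1 repeat 1 (adjusted p = 0.149), either H929 repeat (0.0954 and 0.0629), H929 with shCasp10-3 (0.0699) or either KMS12 course (0.158 and 0.0908), and with the sign of SKMM1 repeat 3 turned (0.322), all by limma with the block. Against the control shRNA its values were -0.59, -1.24, -0.61 and -0.50 on days 1 to 4. Both NKG7 probes had means below 0 over the 28 arrays that were not wide, -0.35 and -0.26.

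GATA1 had course means without the wide arrays of 0.88 and 0.67 in SKMM1, 1.00, 0.43 and 0.45 in H929, and 0.48 and 0.30 in KMS12. All 7 were above 0. It rose by 0.60 (SE 0.09, limma adjusted p = 0.0127). The call was lost without either KMS12 course (adjusted p = 0.0721 and 0.0579 by limma) and with the sign of SKMM1 repeat 3 turned (0.427). On the 12 wide arrays GATA1 ran from below to above 0, at -4.48 on H929 repeat 1 day 2 and -4.18 on SKMM1 repeat 2 day 3 and 0.54 on OCI-Ly7 day 3, and with all arrays its response was 0.01. Against the control shRNA its values were 0.50, 0.32, 0.30 and 0.83. It was read by 1 probe, so no second probe of the gene bears on this value. CASP10 itself fell by 0.28 (SE 0.06, limma adjusted p = 0.0254) in the same fit.

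**Figure D5:**
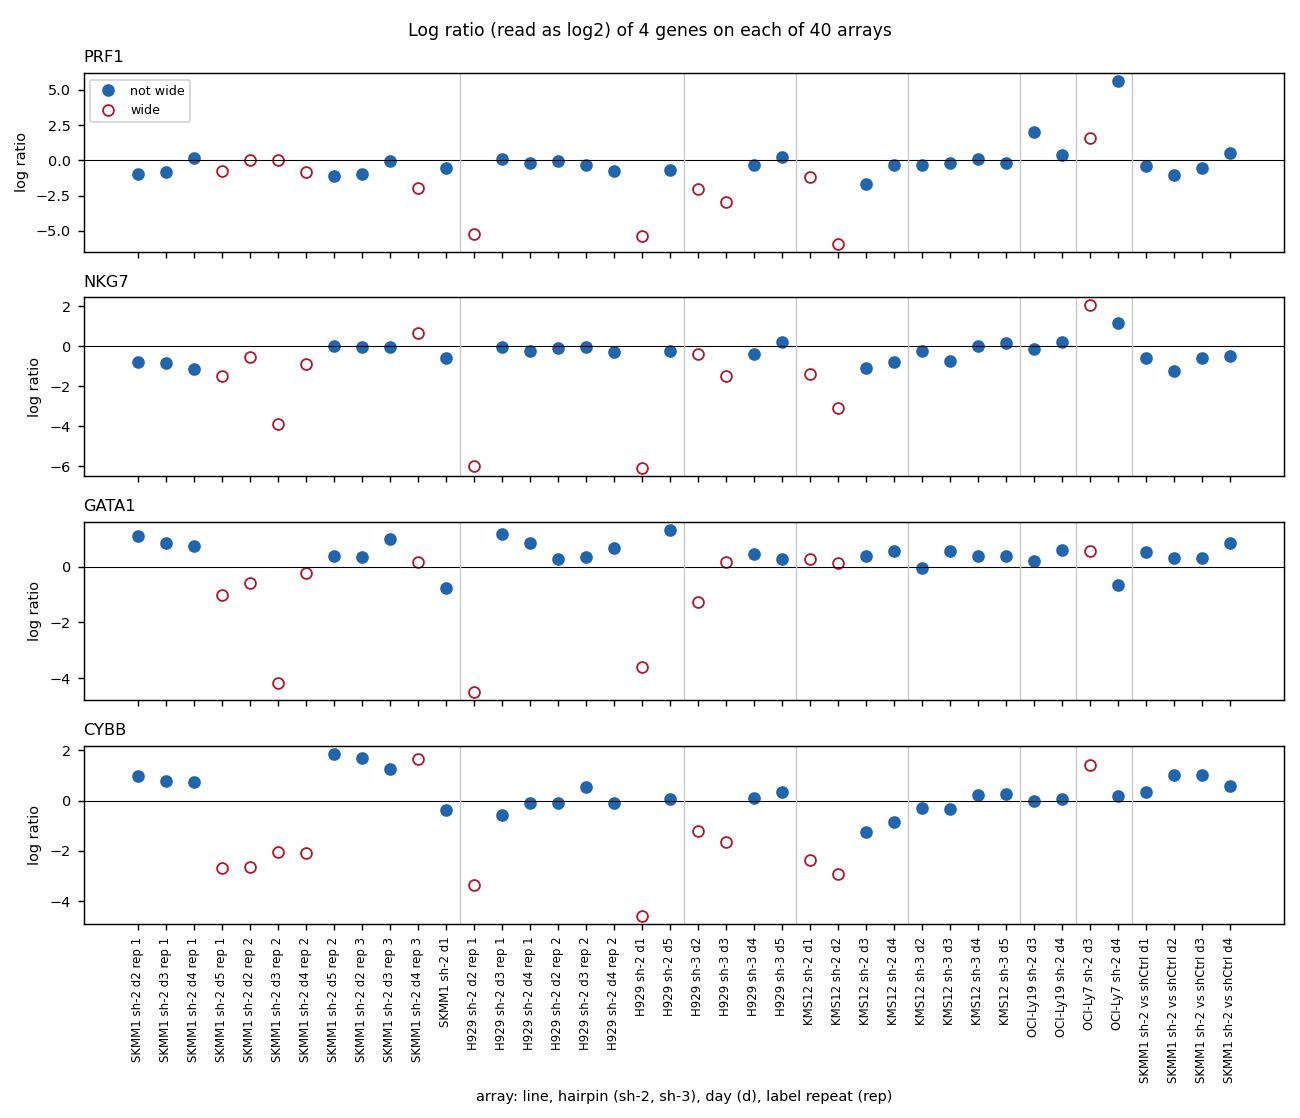
Log ratios of PRF1, NKG7, GATA1 and CYBB on each of the 40 arrays, grouped by line and hairpin; filled points are arrays that were not wide, open points wide arrays. GATA1 lies above 0 on 25 of the 28 filled points and NKG7 below 0 on 22 of them.

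PRF1 was below 0 in all 8 courses, the only one of the 35 genes to have 1 sign in every course; 3% of all features were below 0 in all 8 and 0.496% above. Its course means were -0.55, -0.27 and -1.02 in SKMM1, -1.78, -0.38 and -1.78 in H929, and -2.64 and -0.15 in KMS12, and its response was -1.11 (SE 0.32, limma adjusted p = 0.682). Without the wide arrays NKG7 and PRF1 were below 0 in all 7 courses, as were 4.18% of all features, and GATA1 was above 0 in all 7, as were 2.53%. PRF1 then had a response of -0.44 (SE 0.15, limma adjusted p = 0.108). GNLY had -0.31 (SE 0.11, adjusted p = 0.103), with SKMM1 repeat 1 far below the rest at -1.09 and the other 6 courses between -0.31 and 0.07. CD3E had -0.19 (SE 0.07, adjusted p = 0.141), all by limma.

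In the lymphoma lines the lineage genes lay above 0 rather than below. Over days 3 and 4 the median of the 35 genes was 1.04 in OCI-Ly7 and 0.21 in OCI-Ly19, with 3 and 13 of the 35 below 0. CASP10 itself was above 0 on the arrays labelled OCI-Ly7 knockdown. The direction of each value from that line is therefore in doubt, the differences from lymphoma included. On the 4 single arrays 15 genes were above 0 throughout (26.9% of all features were) and LCK was below 0 throughout (12.3% were). Myeloma minus lymphoma on these days was below 0 for 32 of the 35, with a median of -1.11 against -0.37 for all features. limma called 0 of the 35 and 0% of the 9681 features; 5 of the 35 and 654 features had an unadjusted p under 0.05.

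With the sign of OCI-Ly7 turned, 14 of the 35 lay below 0 with a median of 0.14, and limma again called 0 of the 35 and 0 features (0 of the 35 and 154 features at an unadjusted p under 0.05).

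Of the 35 genes PRF1 had the lowest unadjusted p in this comparison. In OCI-Ly19 it was 1.98 and 0.40 on days 3 and 4, and in OCI-Ly7 1.57 and 5.60, while 24 myeloma arrays of days 2 to 4 gave the 8 course means below 0 listed above. The difference was -3.02 (SE 0.67, limma adjusted p = 0.639), 0.57 (SE 1.07) with OCI-Ly7 turned, and -3.37 (SE 0.83, adjusted p = 0.137) on single arrays without the wide ones and with the block. GZMB, at 5.50 and 5.60 in OCI-Ly7 and -0.21 and 1.12 in OCI-Ly19, differed by -3.20 (SE 1.37, limma adjusted p = 0.639), with both high values in OCI-Ly7. Turned, GZMB differed by 2.36, ZAP70 by -0.03 and GNLY by 0.19. ZAP70 had 0.60 and 1.32 in OCI-Ly19 and 0.92 and 1.93 in OCI-Ly7, and differed by -1.45 (SE 0.36, limma adjusted p = 0.639). GNLY was at 0.08 and 0.45 in OCI-Ly19 and at 1.02 and 1.03 in OCI-Ly7, and differed by -0.84 (limma adjusted p = 0.639). Without the wide arrays and without the block limma called PRF1 (-3.03, adjusted p = 0.0446) and GNLY (-0.88, adjusted p = 0.0475), against 3.86% of all features (2.55% higher and 1.31% lower). With the block it called neither, and 0.0103% of all features (1551 features and 8 of the 35 at an unadjusted p under 0.05). That blocked fit turned on single courses. Without OCI-Ly19 the lymphoma group was 1 array, OCI-Ly7 on day 4, whose direction is in doubt. The median of the 35 genes was then -0.95, beside -0.15 for all features. Without SKMM1 repeat 1, SKMM1 was 1 array, repeat 3 on day 3, and these medians were -0.48 and -0.02. Without OCI-Ly7 the lymphoma group was the 1 course of OCI-Ly19, and 643 features and 0 of the 35 were called.

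Between the myeloma lines CYBB differed between SKMM1 and KMS12 in the single-array fits without the wide arrays, and in no fit on course means. With all arrays limma called 0 of the 35 genes and 0% of features in SKMM1 minus H929, SKMM1 minus KMS12 and H929 minus KMS12, while 40, 75 and 24 features had an unadjusted p under 0.05, none of them among the 35. Without the wide arrays and with the block it called CYBB in SKMM1 minus KMS12 (1 of 35, against 0.207% of all features). It called none of the 35 in SKMM1 minus H929 or H929 minus KMS12 (0% of features each; 1674 and 239 features, and 8 and 0 of the 35, at an unadjusted p under 0.05). Without SKMM1 repeat 1 the blocked fit called 1060 features and 2 of the 35 in SKMM1 minus H929. SKMM1 was then days 2 and 3 of repeat 3 alone, so the line had no second course. Without the block 0 of the 35 passed in SKMM1 minus H929, against 0.0826% of all features (0.062% higher and 0.0207% lower), and 0 in H929 minus KMS12, against 0%.

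CYBB was at 0.97, 0.77 and 0.75 on days 2 to 4 of SKMM1 repeat 1 and at 1.69 and 1.26 on days 2 and 3 of repeat 3. In KMS12 it was at -1.27 and -0.85 on days 3 and 4 with shCasp10-2, and with shCasp10-3 at -0.28, -0.33 and 0.23 on days 2, 3 and 4, so the 2 lines did not overlap on these arrays. The difference was 1.66 (SE 0.32, limma adjusted p = 0.0498). On course means without the wide arrays it was 1.74 (SE 0.40, limma adjusted p = 0.241), where 0 features passed (1877 at an unadjusted p under 0.05). The wide arrays of SKMM1 repeat 2 went the other way, at -2.64, -2.02 and -2.09, and with all arrays the difference did not pass. The call was lost without either H929 repeat (adjusted p = 0.0703 and 0.0888), H929 with shCasp10-3 (0.0676), KMS12 with shCasp10-2 (0.435) or SKMM1 repeat 3 (0.159), with arrays median-centred (0.0582) or centred and scaled (0.0967), with the median of probes (0.0639) and with the sign of SKMM1 repeat 3 turned (0.999), all by limma. CD8B, CSF1R and LAT, called with CYBB where the block was left out (12.1% of all features were called, 10.4% higher and 1.74% lower), had 2.94 (SE 1.04, adjusted p = 0.106), 1.41 (SE 0.51, adjusted p = 0.112) and -0.48 (SE 0.16, adjusted p = 0.102) with the block, by limma.

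The 2 hairpins were compared in H929 and KMS12. limma called 0 of the 35 genes and 0% of features in shCasp10-3 minus shCasp10-2 (187 features and 0 of the 35 at an unadjusted p under 0.05). The differences of the 35 ran from -1.50 (MPO) to 1.28 (CD2), with 17 below 0 and a median of 0.05 beside -0.01 for all features. Single courses set these values. Without either KMS12 course, which leaves H929, the median was -0.37 and the lowest gene TBX21 at -4.20. Without H929 shCasp10-3, which leaves KMS12, the median was 0.66 and the highest gene CD2 at 3.48. The median was -0.15 without H929 repeat 1, 0.36 without H929 repeat 2 and 0.31 without the wide arrays.

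On later days the medians of the lineage genes lay nearer 0 in most H929 and KMS12 courses. On H929 repeat 1 their median was -3.17 on day 2, -0.60 on day 3 and -0.11 on day 4; with shCasp10-3 it was -1.23, -1.34, 0.21 and 0.22 on days 2 to 5. KMS12 with shCasp10-2 had -1.09, -1.41, -0.42 and -0.15 on days 1 to 4. KMS12 with shCasp10-3 had -0.26, -0.21, 0.07 and 0.15, from day 2 to day 5. H929 repeat 2 had 0.18, 0.39 and -0.07 on days 2 to 4. SKMM1, which is also in the slope given next, had -0.015, -0.19 and -0.017 on these days in repeat 1. Its repeat 2 had -1.30, -1.86 and -0.86, and its repeat 3 moved away from 0, at 0.11, 0.34 and 0.55. The change per day over 24 myeloma arrays was above 0 for 31 of the 35, with a median of 0.46 beside 0.26 for all features. limma called 0 of the 35 and 0% of features (5 of the 35 and 770 features at an unadjusted p under 0.05). With a separate mean fitted for each course, in place of a random block, it called 0 again (15 of the 35 and 2485 features). The slopes with an unadjusted p under 0.05 were GZMB 1.15 (SE 0.55), CD14 1.02 (SE 0.44), GZMA 1.01 (SE 0.47), CD28 0.92 (SE 0.35) and LCK 0.52 (SE 0.24), each with a limma adjusted p of 0.479. Array width moved with day in H929 and KMS12, all of whose wide arrays were of days 1 to 3. In SKMM1 the day 4 arrays of repeats 2 and 3 were wide too. Without the wide arrays 17 of the 35 slopes were above 0 and their median was -0.01.

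Against the control shRNA in SKMM1, 12 of the 35 genes lay below 0 on all 4 arrays and 10 above 0, with T cell, NK cell and myeloid genes on both sides. The labels give no repeat for these 4 arrays, which are days of 1 set, so no test was made, and 0 of them were wide. Below 0 on all 4 were CD3D, CD3G, CD6, LCK, LAT, NKG7, GNLY, GZMA, GZMB, IL2RB, CD14 and CSF3R (34.3%, against 22.5% of all features). Above 0 on all 4 were CD247, CD5, CD8B, TBX21, GZMK, NCAM1, CSF1R, CYBB, FCGR1A and GATA1, 10 of 35 (28.6%, against 28% of all features). GZMA was at -1.35, -1.81, -2.31 and -1.89 on days 1 to 4, CD6 at -0.68, -0.97, -1.37 and -1.54, and GNLY at -0.61, -1.10, -0.89 and -0.93. CYBB was at 0.35, 1.02, 1.01 and 0.59. SKMM1 repeat 1, set against uninduced cells, gave GZMA at -1.08, -1.32 and -1.54 and CD6 at -1.20, -1.47 and -1.49 on days 2 to 4. GNLY was at -1.03, -1.28 and -0.97 there, and CYBB at 0.97, 0.77 and 0.75. These 4 kept their side of 0. GZMB, at -0.003, 0.23 and -0.10, and NCAM1, at 0.28, -0.19 and 0.17, lay on both sides in repeat 1. The other genes with 1 side of 0 against the control shRNA kept it in repeat 1. Whether the induced RNA of these 2 sets came from the same cultures is not stated.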

How the data were processed

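The values are log ratios as the authors deposited them, read here as log2. They were already processed and summarised per probe on 40 arrays, for 15246 probes with 0 missing. The dyes are per the labels, while no source used here gives the log base, background correction, normalisation or sign of the ratio. No scanner intensities were used, so the distance from background is unknown. Array medians ran from -2.15 to 0.36, so the arrays were not centred. The probe-to-gene table gave 1 symbol for 10169 probes, several for 4 and none for 5073. Probes of a gene were averaged, which gave 9681 features, 4604 of them named genes, and symbols were checked against RefSeq (GRCh38.p14, 0 symbols of the lineage probes changed).

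limma 3.58.1 in R 4.3.3 (lmFit, eBayes) was fitted to all features with Benjamini-Hochberg adjustment at 0.05, after tests on simulated data. Courses were means over days 2 to 4 (days 3 and 4 against lymphoma). The repeat numbers of day 1 and day 5 arrays of SKMM1 and H929 with shCasp10-2 do not place them in a course, so these enter descriptions only. Days of a course may come from 1 culture. The labels name no separate cultures, so p-values cover the spread among these samples alone, which may be technical. No dyes were swapped, and any dye bias stays in each response against 0. The number of arrays limits the precision.

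Named with values were genes called in a comparison or in the myeloma response on single arrays without wide arrays, the 4 highest and 4 lowest of that response with all arrays, those with 1 sign in all courses, the 3 widest and 3 narrowest over 40 arrays, and those with 3 or more probes; other values describe each gene's spread. Alternatives were median-centred and scaled arrays, wide arrays left out, single arrays with and without the course as a replicate block, turned signs of SKMM1 repeats 2 and 3 and of OCI-Ly7 (added after seeing the data), the median of probes, named genes only, and each course left out. Genes and lists were chosen with earlier results of these data known, and the blocked fit without wide arrays was added after seeing the data.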

Additional observations from a re-analysis of the deposited data

Results flagged for a closer look

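Among the 35 genes, each with 8 myeloma course means, 2 had a course far from the others, about as many as the 1 in 20 that chance gives. GNLY had -1.09 in SKMM1 repeat 1, where the other 7 courses lay between -0.21 and 0.13. CSF3R had -0.91 in H929 with shCasp10-3, where the others lay between -0.35 and 0.12.

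In 2 lineage genes every course of a group lay on the opposite side of 0 from every course of another. The share of all features that did so was not counted. Whether 2 lineage genes is more than usual on these arrays is therefore not shown. The differences of course means given next were not tested. CD4 lay below 0 in the 3 SKMM1 courses and above 0 in the 2 KMS12 courses, a difference of -0.55. PRF1 lay below 0 in the 8 myeloma courses (mean -1.07, days 2 to 4) and above 0 in the 2 lymphoma courses (mean 2.39, days 3 and 4). The difference was -3.46 with each course given equal weight. The days are unlike, so it is not the tested difference above, which used days 3 and 4 for both. The direction of OCI-Ly7 is in doubt, and turned it would lie at -3.58, below 0 like the myeloma courses. The difference would then be 0.12, again over unlike days.

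The difference in CYBB between SKMM1 and KMS12 passed the test on single arrays without the wide ones, with the course as a block (1.66, limma adjusted p = 0.0498), and neither with all arrays (adjusted p = 1.00) nor on course means without the wide ones (1.74, adjusted p = 0.241).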

How the results depend on the processing

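With all arrays, limma called 0 features and 0 lineage genes in all 7 comparisons under each alternative run, with these exceptions. On single arrays without the wide ones and without a block it called 1320 features and 5 lineage genes in the myeloma response, 374 and 2 in myeloma minus lymphoma, 8 and 0 in SKMM1 minus H929, and 1174 and 4 in SKMM1 minus KMS12. With the course as a replicate block these were 442 and 2, 1 and 0, 0 and 0, and 20 and 1. Leaving out a course gave 0 to 82 features in myeloma minus lymphoma, 82 without OCI-Ly19. With all arrays or course means, 24 to 35 of the 35 genes lay below 0 in the myeloma response, with medians from -0.78 to -0.10; the blocked fit without the wide arrays gave 26, and 19 without SKMM1 repeat 1 (median -0.02). With OCI-Ly7 turned, the genes below 0 in myeloma minus lymphoma went from 32 to 14, PRF1 to 0.568 and GNLY to 0.186. The day slopes above 0 went from 31 to 17 without the wide arrays. The ratio of the lineage SD to that of all features went from 0.94 to 1.12 with 1 probe at a time.

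In the blocked fit without the wide arrays, leaving out a course gave 0 to 790 features and 0 to 3 lineage genes in the myeloma response, with 17 features without H929 repeat 1, 213 without H929 shCasp10-3, 0 without KMS12 shCasp10-2, 9 without KMS12 shCasp10-3 and 790 without SKMM1 repeat 3; turning SKMM1 repeat 3 left 0 and 0. In SKMM1 minus KMS12 leaving out a course gave 0 to 1498 features (1498 without SKMM1 repeat 1) and 0 to 5 lineage genes. Leaving out an SKMM1 or KMS12 course left that line with 1 course. Turning SKMM1 repeat 3 gave 0 and 0; centred arrays and the median of probes left 0 lineage genes, and centred and scaled arrays left 8 features and 0 lineage genes.

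Responses near 0 changed sign. With SKMM1 repeat 3 turned, CD3E was 0.013, GATA1 -0.10 and CYBB in SKMM1 minus KMS12 -0.087. With SKMM1 repeat 2 turned, CD2 was 0.026 and CD8B 0.11, and CD8B was 0.032 without the wide arrays. On centred arrays KLRD1 was 0.07, and on centred and scaled arrays KLRD1 was 0.002 and LAT 0.004. Leaving out a course gave -0.153 to 0.272 for GATA1, below 0 without H929 repeat 2 (-0.095), SKMM1 repeat 1 (-0.153) or SKMM1 repeat 3 (-0.089), and -0.092 to 0.038 for KLRD1, above 0 without KMS12 shCasp10-3 (0.038) or SKMM1 repeat 1 (0.001). The cause of these changes was not tested. Same-numbered SKMM1 arrays deviated together from the means of their day (r 0.34 to 0.63). Those of H929 did so in part (r -0.149 to 0.435). With 2 repeats in H929, deviations from a day mean mirror each other, so both repeats give the same r values.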
